A study of Mus musculus with 24 samples.

Results

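The genes for the E2F transcription factors and their DP partners were followed in muscle precursors and in differentiated muscle cells, in the presence or absence of the retinoblastoma protein (Rb). The 9 genes were E2f1, E2f2, E2f3, E2f4, E2f5, E2f6, E2f8, Tfdp1 and Tfdp2. Every probe set annotated to exactly 1 of them was used, which gave 20 of the 45137 non-control probe sets on the 2 chip types, MOE430A and MOE430B. A probe set is a group of short probes that reads 1 transcript region. The filter on low signals left 19 of the 20, with at least 1 for each of the 9 genes. The activators E2f1, E2f2 and E2f3 held 7 probe sets, the repressors E2f4, E2f5, E2f6 and E2f8 held 8, and the partners Tfdp1 and Tfdp2 held 5.

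RNA came from 12 mouse primary muscle cultures, each measured on 1 array of each chip type. Myotubes, the fused and normally non-dividing muscle cells, were harvested on day 6 in DMEM with 5% horse serum, either MCK-cre Rb flox (cultures J, K and L) or wild type, WT (G, H and I). Myoblasts, their dividing precursors derived from satellite cells, grew in Ham's F-10 with 20% fetal bovine serum and bFGF, either Rb-null (D, E and F) or WT (A, B and C). MCK-cre drives the Cre recombinase from the muscle creatine kinase promoter, which turns on as muscle cells differentiate, so floxed Rb is lost late. In Rb-null cultures the protein is missing already in dividing cells, which the labels call defective in differentiation. Per the labels, the myotubes came from 3 independent cell lines per genotype and the myoblasts were biological triplicates, with fibroblasts as the possible contaminant.

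E2F proteins bind DNA as pairs with a DP protein and switch on genes for DNA synthesis. E2F1, E2F2 and E2F3 activate these genes and are held in check by Rb. E2F4 and E2F5 act mainly as repressors, together with the Rb relatives p107 and p130, in cells that have left the cycle. E2F6 represses without any pocket protein, through Polycomb-type complexes. E2F8 is an atypical repressor that binds DNA without a DP partner and damps the S-phase programme. In muscle, Rb is known to hold differentiated cells out of the cell cycle.

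Rb1, the gene that was deleted, read 685, 802 and 590 signal units on probe set 1417850_at in MCK-cre Rb flox myotubes J, K and L, against 3664, 3265 and 3314 in WT myotubes G, H and I. In Rb-null myoblasts D, E and F it read 428, 712 and 260, against 2879, 1440 and 1579 in WT myoblasts A, B and C. The labels and the Rb1 signal therefore ran the same way in all 4 groups; whether the probes lie in the deleted part is not given in the sources used here. Median array signals were 562 to 720 on MOE430A and 724 to 975 on MOE430B. On MOE430B, Rb-null cultures E and F had a scan day of their own. All 6 myotube cultures were scanned on 1 day together with WT myoblast B, and the other myoblasts on earlier days. The contrast between both kinds of myotube thus lay within 1 scan day, while MCK-cre Rb flox myotubes and Rb-null myoblasts shared none. With scan day as a block, WT myotubes were therefore compared with WT myoblast B alone, the only myoblast scanned with them. The 18S ribosomal RNA control on MOE430A averaged 8403 on the last scan day (SD 2440, n = 7 arrays) and 311 on the earlier day (SD 119, n = 5). The ratio of 3' to 5' signal of beta-actin on MOE430A was 0.879 ± 0.079 in MCK-cre Rb flox myotubes and 0.533 ± 0.096 in WT myotubes, and 1.02 ± 0.05 in Rb-null and 1.10 ± 0.06 in WT myoblasts (SD, n = 3). The same ratio of Gapdh differed less, at 0.82 ± 0.05, 0.83 ± 0.04, 0.78 ± 0.03 and 0.79 ± 0.01 in these groups, in that order. The part of scan day, 18S and these ratios in the results was not tested, apart from the scan-day values given beside the results.

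Of the 9 genes, 7 had at least 1 promoter window in the RefSeq table on mouse build GRCm38.p6. A window has 300 bases, 250 before and 50 after an annotated start. E2f4 and E2f5 were not in it. The windows were searched on both strands for 4 forms of the E2F recognition motif, TTTCCCGC, TTTCGCGC, TTTGCCGC and TTTGGCGC; no match overlapped another. Of 27025 genes with a window, 2.60% held a match, and 3 of the 7 did: E2f2, E2f3 and Tfdp1. These windows are shown with the match in capitals. All 3 genes were called in at least 1 comparison below, but so were E2f1, E2f6, E2f8 and Tfdp2, whose windows held no match. The Tfdp1 match lies in both of its windows, while E2f2 and E2f3 each have a further window inside the gene without a match. The windows of E2f1, E2f6, E2f8 and Tfdp2 did not hold these letters, and those of E2f1, E2f8 and Tfdp2 lie inside the annotated gene. A match is a description of letters, not of binding.
Tfdp1, 250 bases before the start, plus strand, chr8:13338501-13338750, TTTCGCGC on the opposite strand: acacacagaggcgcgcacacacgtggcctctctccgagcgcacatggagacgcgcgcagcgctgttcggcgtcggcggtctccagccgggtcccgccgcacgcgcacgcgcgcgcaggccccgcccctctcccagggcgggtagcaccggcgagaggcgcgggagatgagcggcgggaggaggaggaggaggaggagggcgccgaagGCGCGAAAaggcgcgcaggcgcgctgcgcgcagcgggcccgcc
E2f3, 250 bases before the start, minus strand, chr13:29986064-29986313, TTTCCCGC on the opposite strand: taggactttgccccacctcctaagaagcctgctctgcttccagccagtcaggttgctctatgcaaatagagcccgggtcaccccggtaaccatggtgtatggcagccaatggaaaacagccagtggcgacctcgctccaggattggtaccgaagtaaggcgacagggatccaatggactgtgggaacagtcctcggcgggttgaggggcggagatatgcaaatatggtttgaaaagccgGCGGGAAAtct
E2f2, 30 bases around the match just after the start, plus strand, chr4:136172294-136172323, TTTGGCGC on the same strand: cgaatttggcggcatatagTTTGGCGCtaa

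E2f1, the activator best known for being bound by Rb, was lowest in WT myotubes and highest in myotubes that had lost Rb. On probe set 1431875_a_at, MCK-cre Rb flox myotubes J, K and L had signals of 2764, 2953 and 3083, against 281, 346 and 182 in WT myotubes G, H and I. Rb-null myoblasts D, E and F had 2514, 2570 and 1896, against 1529, 1346 and 1430 in WT myoblasts A, B and C. The 4 groups did not overlap at any step of the order MCK-cre Rb flox myotubes, Rb-null myoblasts, WT myoblasts, WT myotubes. All tests below are limma's, on log2(signal + an offset equal to the 20th percentile of the chip type), with Benjamini-Hochberg adjustment over 31931 probe sets; a probe set was called at an adjusted p under 0.05. E2f1 was 7.77-fold higher in MCK-cre Rb flox than in WT myotubes (log2 change 2.96, SE 0.22, adjusted p = 4.04e-06). It was 3.97-fold lower in WT myotubes than in WT myoblasts (log2 change -1.99, SE 0.22, adjusted p = 3.89e-05). In bulk cultures more cells that express a gene and more RNA per cell cannot be told apart, here and in all results below.

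The other E2f1 probe set of that chip type, 1417878_at, showed the same order of groups. MCK-cre Rb flox myotubes had signals of 1043, 1040 and 1296, against 148, 99.9 and 87.9 in WT myotubes. Rb-null myoblasts had 571, 879 and 1087, against 633, 809 and 667 in WT myoblasts, so the 2 kinds of myoblast overlapped. Its log2 change was 2.38 without Rb in myotubes (SE 0.28, adjusted p = 0.000206) and -1.79 with differentiation in WT cells (SE 0.28, adjusted p = 0.000499). Both probe sets were below the filter threshold on all 3 WT myotube arrays, where the offset of 130.2 understates a fold. The pair followed each other over the 12 cultures with r = 0.951. The E2f1 probe set on MOE430B, 1447840_x_at, exceeded the filter on 2 arrays only and was not tested; it read 399 to 739 in MCK-cre Rb flox and 316 to 382 in WT myotubes, and 292 to 478 in Rb-null and 416 to 889 in WT myoblasts. In myoblasts neither of the tested E2f1 probe sets was called, at log2 changes of 0.64 (SE 0.22) and 0.20 (SE 0.28) for Rb-null over WT and adjusted p of 0.920 and 0.9998.

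E2f2, the second activator, was highest in dividing cells without Rb. On probe set 1436434_at, Rb-null myoblasts D, E and F had signals of 13243, 12610 and 5769, against 3178, 2411 and 3126 in WT myoblasts. MCK-cre Rb flox myotubes had 4060, 3568 and 4327, against 4246, 2339 and 2011 in WT myotubes. Every Rb-null myoblast culture lay above all 9 other cultures, while both kinds of myotube overlapped. The other probe set, 1455790_at, gave 7706, 3961 and 2436 in Rb-null myoblasts, against 1315, 422 and 1367 in WT myoblasts. It read 1992, 1341 and 2351 in MCK-cre Rb flox myotubes, against 1677, 827 and 1023 in WT myotubes. The Rb-null over WT myoblast changes were 1.71 (SE 0.31) and 1.95 (SE 0.43) on the log2 scale, 3.27-fold and 3.87-fold. Neither passed the adjustment over all probe sets (adjusted p = 0.401 and 0.580), although by p they ranked 7 and 20 of 31931 in this comparison. On MOE430B, Rb-null cultures E and F were scanned on a day that held no WT culture. Within the scan day of MOE430B that held D, A and C, the changes were 2.00 and 2.35. They rest on D as the only Rb-null culture, assumed to vary as the WT pair did, and are given as sizes only.

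The E2f2 level of Rb-null myoblasts was not reached in any myotube culture. E2f2 was lower in MCK-cre Rb flox myotubes than in Rb-null myoblasts on 1436434_at (log2 change -1.27, SE 0.31, adjusted p = 0.0161), and on 1455790_at the change was -1.11 (SE 0.43, adjusted p = 0.0945). These groups shared no scan day, and WT myoblast B was the only link between the days of the myotubes and the other myoblasts. With scan day as a block the first change was -1.33, with a larger SE of 0.63, and its call was lost. The first call was also lost without Rb-null culture D or E. In WT cells no E2f2 change with differentiation was called, at -0.08 (95% interval -0.75 to 0.59) and 0.22 (-0.69 to 1.14) on the log2 scale.

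E2f3, the third activator, was lower in myotubes of both genotypes. On probe set 1434564_at (MOE430B), MCK-cre Rb flox myotubes had signals of 6006, 4920 and 6121, against 4720, 2486 and 3957 in WT myotubes. Rb-null myoblasts had 15558, 12427 and 11854, against 12270, 8647 and 12560 in WT myoblasts. No myotube culture reached the lowest myoblast culture. The log2 change was -1.56 (SE 0.23, adjusted p = 0.000349) for WT myotubes over WT myoblasts. It was -1.19 (SE 0.23, adjusted p = 0.00501) for MCK-cre Rb flox myotubes over Rb-null myoblasts. With scan day as a block, which compared WT myotubes with culture B alone, the first was -1.22 and still called. The second, linked over the days only through culture B, was then -0.92 (SE 0.47) and lost its call. Within the 1 scan day that held culture B as its lone WT myoblast, the first, again -1.22, was not called (adjusted p = 0.128). Between the 2 kinds of myotube the groups were separate, yet the change of 0.62 (SE 0.23) was not called (adjusted p = 0.132).

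On the MOE430A probe set of E2f3, 1427462_at, the groups overlapped more. MCK-cre Rb flox myotubes had 799, 484 and 586, against 759, 304 and 245 in WT myotubes. Rb-null myoblasts had 755, 1004 and 881, against 712, 1034 and 773 in WT myoblasts. None of its changes was called; that of WT differentiation was -0.87 (SE 0.34, adjusted p = 0.0746), and without WT myotube culture G, whose signal was the highest of its group, it was -1.25 (adjusted p = 0.0124). The E2f3 probe sets followed each other with r = 0.753 over the 12 cultures.

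**Figure D1:**
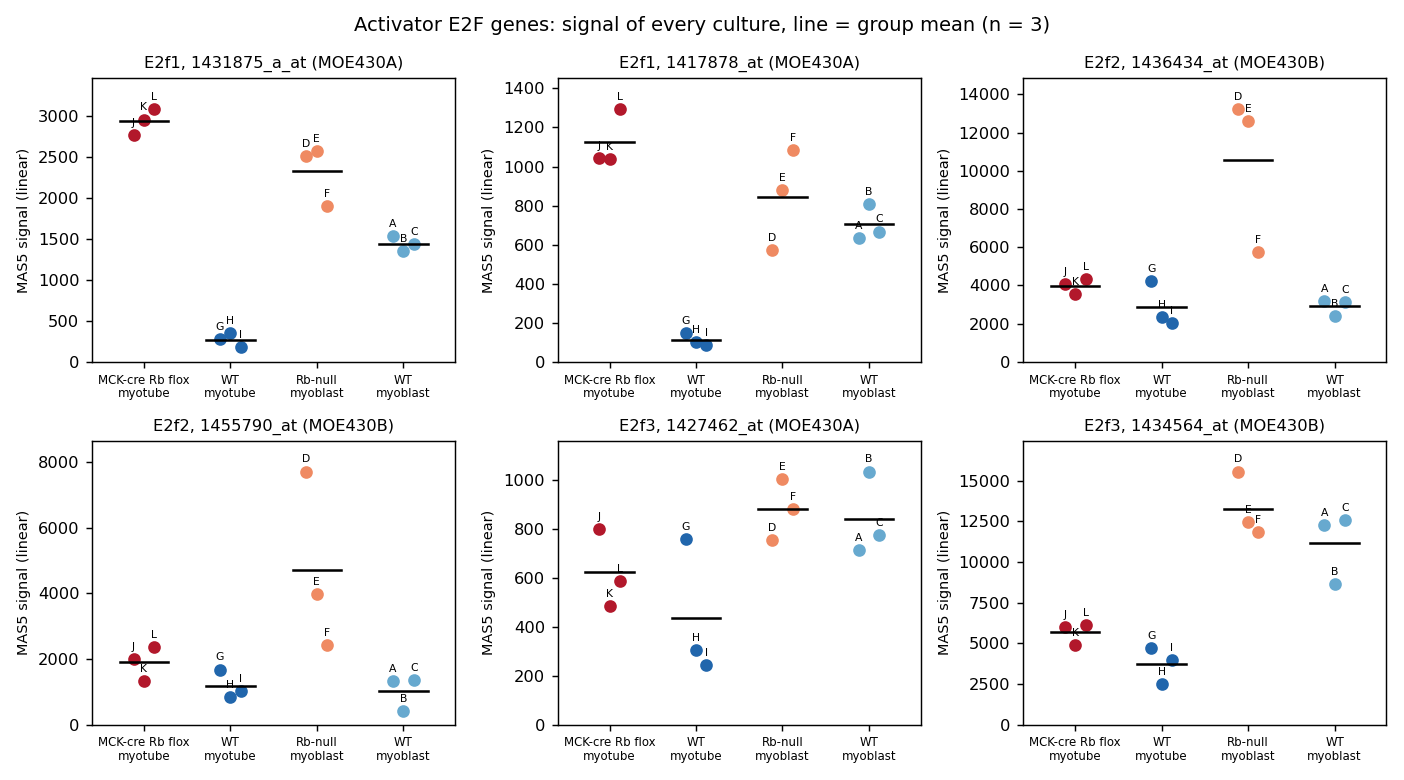
Linear MAS5 signal (y axis, from 0) of 6 activator probe sets in every culture, lettered, by group (x axis); black lines are means of 3 cultures. E2f1 is lowest in WT myotubes (182 to 346 on 1431875_a_at), E2f2 stands out in Rb-null myoblasts (5769 to 13243 on 1436434_at), and E2f3 on 1434564_at is lower in both kinds of myotube.

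E2f4, the repressor that predominates in many resting cells, was called in none of the 5 contrasts. On its probe set 1451480_at, MCK-cre Rb flox myotubes had signals of 1934, 1660 and 2234, against 1768, 1631 and 1412 in WT myotubes. Rb-null myoblasts had 2164, 1966 and 1812, against 1847, 2420 and 1785 in WT myoblasts. The change without Rb was 0.25 in myotubes (95% interval -0.18 to 0.68) and -0.02 in myoblasts (-0.45 to 0.41) on the log2 scale. With differentiation of WT cells it was -0.30 (-0.73 to 0.13, adjusted p = 0.289), with all 3 WT myotube cultures below the 3 WT myoblast cultures. The groups with and without Rb overlapped in both cell states.

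E2f5, the other pocket-bound repressor, could not be given 1 pattern, since its 3 probe sets did not follow each other (r from -0.094 to 0.521 over the 12 cultures). The brightest, 1447625_at on MOE430B, ranged from 7664 to 12861 in MCK-cre Rb flox myotubes, against 4425 to 17046 in WT myotubes. It ranged from 9509 to 11145 in Rb-null myoblasts, against 8020 to 13891 in WT myoblasts, so all 4 groups overlapped. On 1460207_s_at, MCK-cre Rb flox myotubes had 614, 447 and 405, against 779, 537 and 562 in WT myotubes, and Rb-null myoblasts had 803, 695 and 764, against 780, 757 and 886 in WT myoblasts. On 1417444_at, which passed the filter on 4 arrays, all of them myoblasts, all myotube cultures lay between 143 and 256. These were below the lowest filter threshold of that chip type, 339.8. Its myoblast cultures were 213 to 718 when Rb-null, against 189 to 787 when WT. None of the 3 was called in any contrast. The change with differentiation of WT cells was -0.95 on 1417444_at (SE 0.42, adjusted p = 0.117). Culture B was the lowest WT myoblast there, at 189. Without culture B the change was -1.39 (limma, adjusted p = 0.0218). As the filter was passed in myoblasts alone, neither value is support for a fall with differentiation. Blocking on scan day, which compared WT myotubes with culture B alone, gave -0.09.

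E2f6, the Polycomb-linked repressor, was the only member called higher in WT myotubes than in WT myoblasts. On 1448835_at (MOE430A), MCK-cre Rb flox myotubes had signals of 2177, 2977 and 2072, against 1922, 2539 and 2795 in WT myotubes. Rb-null myoblasts had 1643, 2091 and 1121, against 1674, 1101 and 1158 in WT myoblasts. WT myotubes lay above WT myoblasts without overlap, at a log2 change of 0.83 (SE 0.26, adjusted p = 0.0336). MCK-cre Rb flox myotubes overlapped Rb-null myoblasts, at 0.56 (adjusted p = 0.160). The WT call was lost with each array centred on its median and without any 1 of cultures B, C, H or I. With scan day as a block, which compared WT myotubes with culture B alone, the log2 change was 1.03 and was not called. The change without Rb in myotubes was -0.01 (95% interval -0.57 to 0.56).

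The MOE430B probe set of E2f6, 1437914_at, had a change in the same direction that was not called, and followed the first with r = 0.126. It read 1851 to 2225 in MCK-cre Rb flox and 1767 to 2389 in WT myotubes. Rb-null myoblasts had 1856 to 1960, against 366, 1962 and 2029 in WT myoblasts A, B and C. Culture A set the mean of its group, and the change with differentiation of WT cells was 0.68 (SE 0.40, adjusted p = 0.230).

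E2f8, the atypical repressor, had its lowest mean in WT myotubes and its highest in Rb-null myoblasts. On 1436186_at (MOE430A), MCK-cre Rb flox myotubes had signals of 1570, 1509 and 1539, against 626, 470 and 1251 in WT myotubes. Rb-null myoblasts had 2416, 3626 and 2611, against 1144, 1898 and 1665 in WT myoblasts. The group without Rb lay above its WT group in both cell states. Neither Rb change was called, at 0.96 in myotubes (SE 0.30, adjusted p = 0.0686) and 0.83 in myoblasts (SE 0.30, adjusted p = 0.922). The myotube change was called with scan day as a block (adjusted p = 0.04999, just under the threshold), which left its size at 0.96. It was also called with each chip type adjusted on its own (adjusted p = 0.0320) and without WT myotube culture I (adjusted p = 0.0142). No other alternative setting called it, and neither did the fit within the 1 scan day of all myotubes. E2f8 was lower in WT myotubes than in WT myoblasts (log2 change -0.96, SE 0.30, adjusted p = 0.0326). Even so, WT myotube I (1251) exceeded WT myoblast A (1144). The differentiation call was lost without any 1 of cultures B, C, G or H. With scan day as a block, which compared WT myotubes with culture B alone, the log2 change was -1.24 and was not called.

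The MOE430B probe set of E2f8, 1444319_at, passed the filter on 7 arrays and scattered widely. MCK-cre Rb flox myotubes had 501, 249 and 1373, against 325, 287 and 891 in WT myotubes. Rb-null myoblasts had 3385, 3101 and 652, against 414, 1748 and 1602 in WT myoblasts. Groups overlapped in both Rb comparisons, and no change of this probe set was called.

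Tfdp1, which encodes the DP partner DP1, had the same order of group means as E2f1. On 1423241_a_at (MOE430A), its single probe set, MCK-cre Rb flox myotubes J, K and L had signals of 6119, 12919 and 8012, against 2327, 2085 and 2727 in WT myotubes. Rb-null myoblasts had 7185, 8070 and 9168, against 6201, 6652 and 6259 in WT myoblasts. WT myotubes lay far below the other 9 cultures, and culture K was the highest of all. Tfdp1 was 3.495-fold higher in MCK-cre Rb flox than in WT myotubes (log2 change 1.81, SE 0.23, adjusted p = 0.000413), and this call held in 25 of 25 alternative settings. In WT cells it was 2.60-fold lower in myotubes than in myoblasts (log2 change -1.38, SE 0.23, adjusted p = 0.000837). The Rb-null over WT myoblast change was 0.34 (95% interval -0.16 to 0.84) and was not called (adjusted p = 0.9998), although the groups were separate.

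Tfdp2, which encodes the other DP partner, was called only on 1 probe set and in 1 contrast. Its 4 probe sets, all on MOE430B, followed each other with r from -0.137 to 0.788. On 1435344_at, MCK-cre Rb flox myotubes had signals of 4895, 4726 and 5060, against 4414, 4105 and 3713 in WT myotubes. Rb-null myoblasts had 5053, 5252 and 8371, against 8321, 5705 and 7017 in WT myoblasts. With differentiation of WT cells it was lower by a log2 change of -0.74 (SE 0.21, adjusted p = 0.0188), and it was not called without Rb in myotubes (0.25, SE 0.21, adjusted p = 0.544). The differentiation call was lost without any 1 of cultures A, C or I. With scan day as a block, which compared WT myotubes with culture B alone, the log2 change was -0.47 and was not called. The other 3 probe sets were called in no contrast. On 1437174_at the ranges were 5217 to 7565 in MCK-cre Rb flox and 5441 to 7106 in WT myotubes, and 6619 to 8969 in Rb-null and 7213 to 9770 in WT myoblasts. Probe set 1443962_at read 2936 to 4288 in MCK-cre Rb flox and 2206 to 4342 in WT myotubes; its Rb-null myoblasts, at 2556 to 2801, lay below its WT myoblasts, at 3500 to 4341. Probe set 1445873_at read 443 to 1858 in MCK-cre Rb flox and 368 to 1004 in WT myotubes, and 955 to 1154 in Rb-null and 1038 to 1269 in WT myoblasts.

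**Figure D2:**
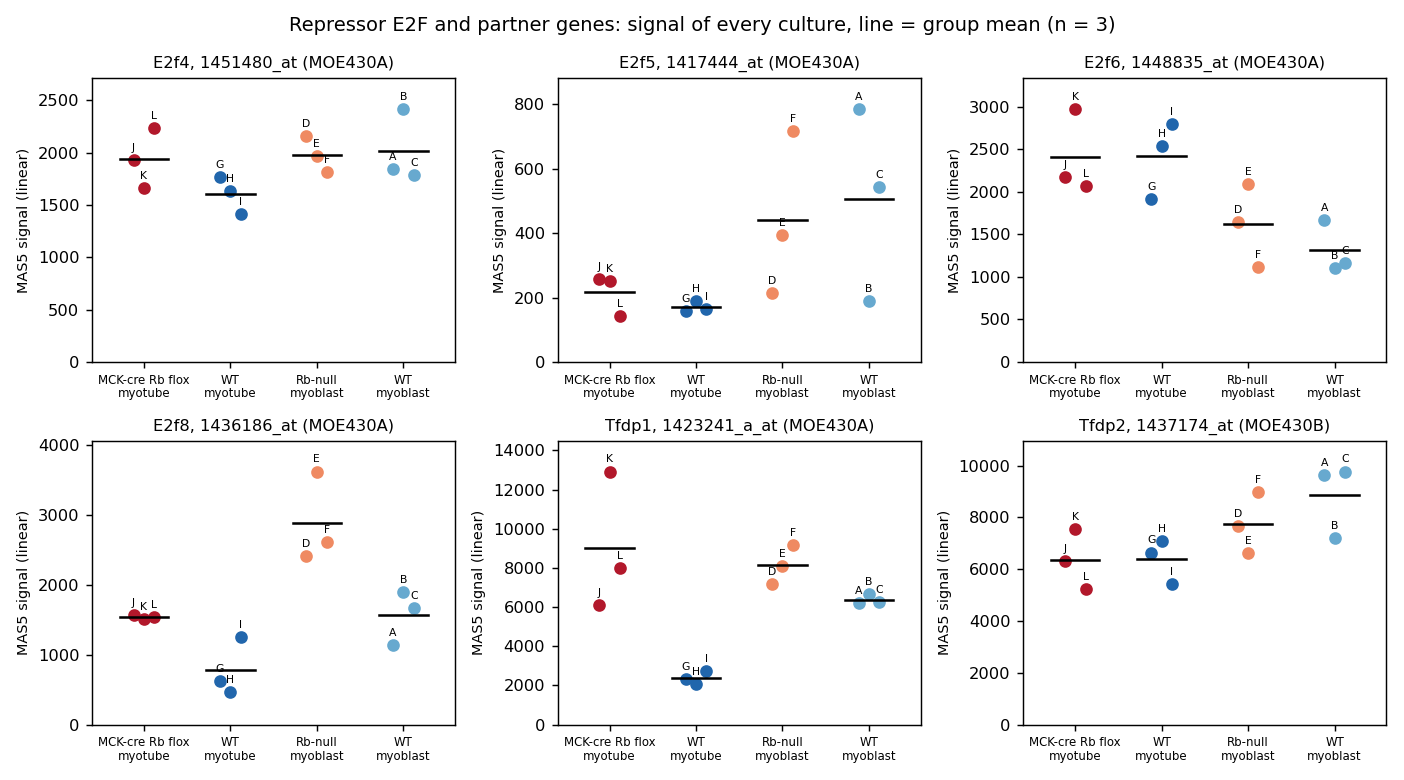
Linear MAS5 signal (y axis, from 0) of 1 probe set each of E2f4, E2f5, E2f6, E2f8, Tfdp1 and Tfdp2 in every culture, lettered, by group (x axis); black lines are means of 3 cultures. Tfdp1 is low only in WT myotubes (2085 to 2727), E2f6 is higher in WT myotubes than in WT myoblasts and overlaps between the groups without Rb, and E2f4 overlaps between the groups with and without Rb in each cell state.

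Set side by side, the comparison between both kinds of myotube called E2f1 and Tfdp1 and no other member. Of the 19 probe sets, 3 were called higher in MCK-cre Rb flox than in WT myotubes and 0 lower, where 4.96% of all probe sets were called higher and 3.25% lower. The 3 were both E2f1 probe sets and Tfdp1. All 6 activator probe sets had a positive change, from 0.50 to 2.96, with a median of 0.62. Of the 8 repressor probe sets 4 were positive, from -0.29 to 0.96, with a median of 0.09 and none called. The median over all 31931 probe sets was 0.02. Of the probe sets of E2f4 and E2f5, 0 of 4 were called by limma in this comparison, against the 4.96% and 3.25% above. With 4 probe sets this count gives no result about these genes.

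In myoblasts the loss of Rb gave no called member, and limma called 0.0% of all 31931 probe sets. Rb1 itself was not called there (log2 change -1.82, SE 0.31, adjusted p = 0.352), although its signals did not overlap. An unadjusted p under 0.05 was found for 5 of the 19 members and 1431 of all probe sets. Over all probe sets, limma called 2 with each chip type on its own, 3 with array weights, 1 without a trend and 1 without Rb-null culture D, none of them a member. Signals of Rb-null and WT myoblasts did not overlap for 5 of the 19 that were higher and 1 that was lower, where 6.49% of all probe sets were separate and higher and 5.08% separate and lower. The 5 were E2f1 on 1431875_a_at, both E2f2 probe sets, E2f8 on 1436186_at and Tfdp1; the 1 was Tfdp2 on 1443962_at. The activator median was 0.45, the repressor median 0.12 and that of all probe sets 0.00.

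**Figure D3:**
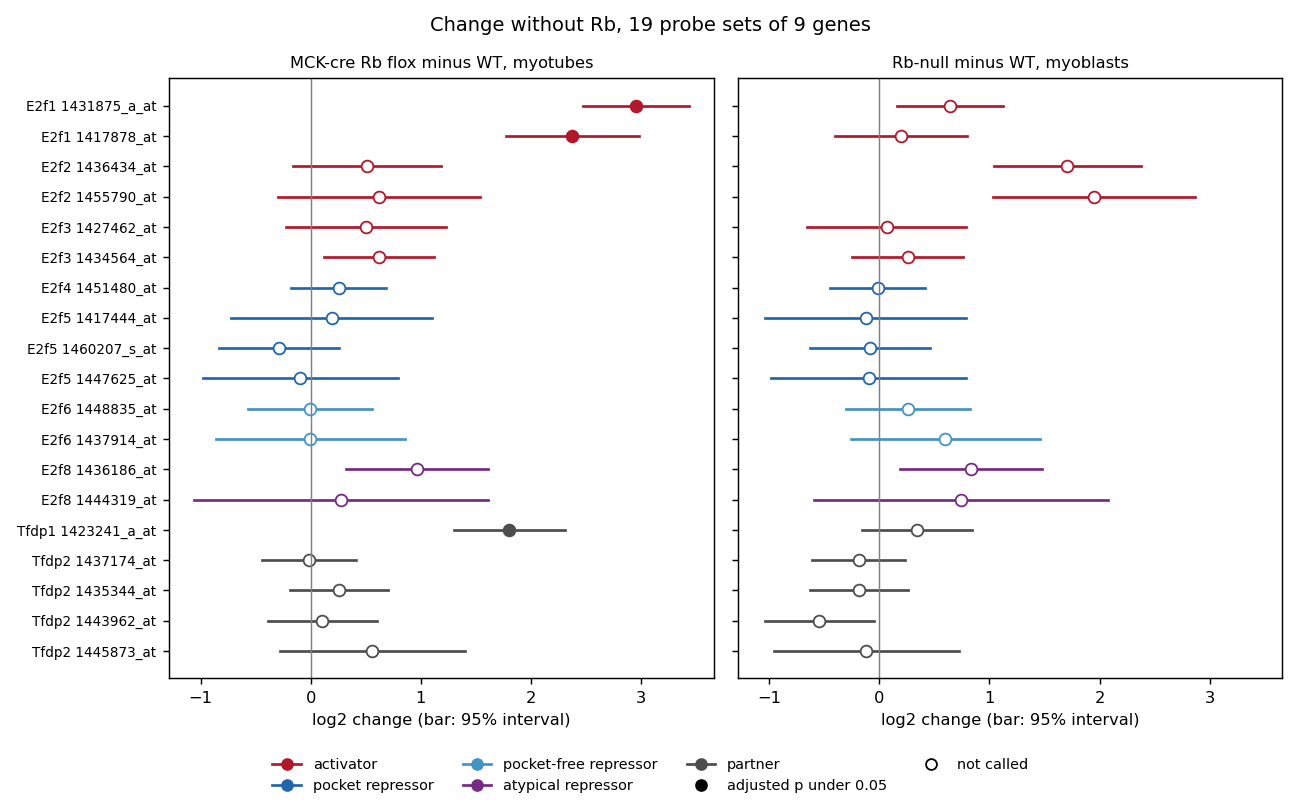
Log2 change (x axis) of 19 probe sets (rows) without Rb, in myotubes (left) and in myoblasts (right), with 95% intervals of the limma fit; filled points have an adjusted p under 0.05. E2f1 and Tfdp1 are called in myotubes at 1.81 to 2.96, while in myoblasts E2f2 has the largest changes, 1.71 and 1.95, and no point is filled.

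In WT differentiation most called members were lower in myotubes. This name stands for WT myotubes against WT myoblasts, which also differed in medium and serum, and these cannot be told apart here. Of the 19 probe sets, 6 were called lower in WT myotubes than in WT myoblasts and 1 higher, where 13.7% of all probe sets were called lower and 11.3% higher. The 6 were the E2f1 pair, E2f3 on 1434564_at, E2f8 on 1436186_at, Tfdp1 and Tfdp2 on 1435344_at; the 1 was E2f6 on 1448835_at. This comparison and that between the myotubes share the WT myotube cultures, so a low WT myotube value enters both. The activator median was -1.21, the repressor median -0.31 and that of all probe sets 0.10. Within the last scan day, where culture B was the lone WT myoblast and was assumed to vary as the myotubes did, the changes of E2f1 were -1.91 and -1.96 (adjusted p = 0.00545 and 0.00963) and that of Tfdp1 was -1.44 (adjusted p = 0.0342).

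Without Rb, neither E2f1 nor Tfdp1 was called between myotubes and myoblasts. These groups also differed in medium, serum and the time of Rb loss, which cannot be told apart from cell state here. Of the 19 probe sets, 0 were called higher and 2 lower in MCK-cre Rb flox myotubes than in Rb-null myoblasts, namely E2f2 on 1436434_at and E2f3 on 1434564_at, where 6.61% of all probe sets were called higher and 8.67% lower. E2f1 differed by 0.33 (95% interval -0.15 to 0.81) and 0.39 (-0.21 to 0.998), and Tfdp1 by 0.08 (-0.42 to 0.58). E2f1 in MCK-cre Rb flox myotubes also lay above all 3 WT myoblast cultures on both probe sets.

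**Figure D4:**
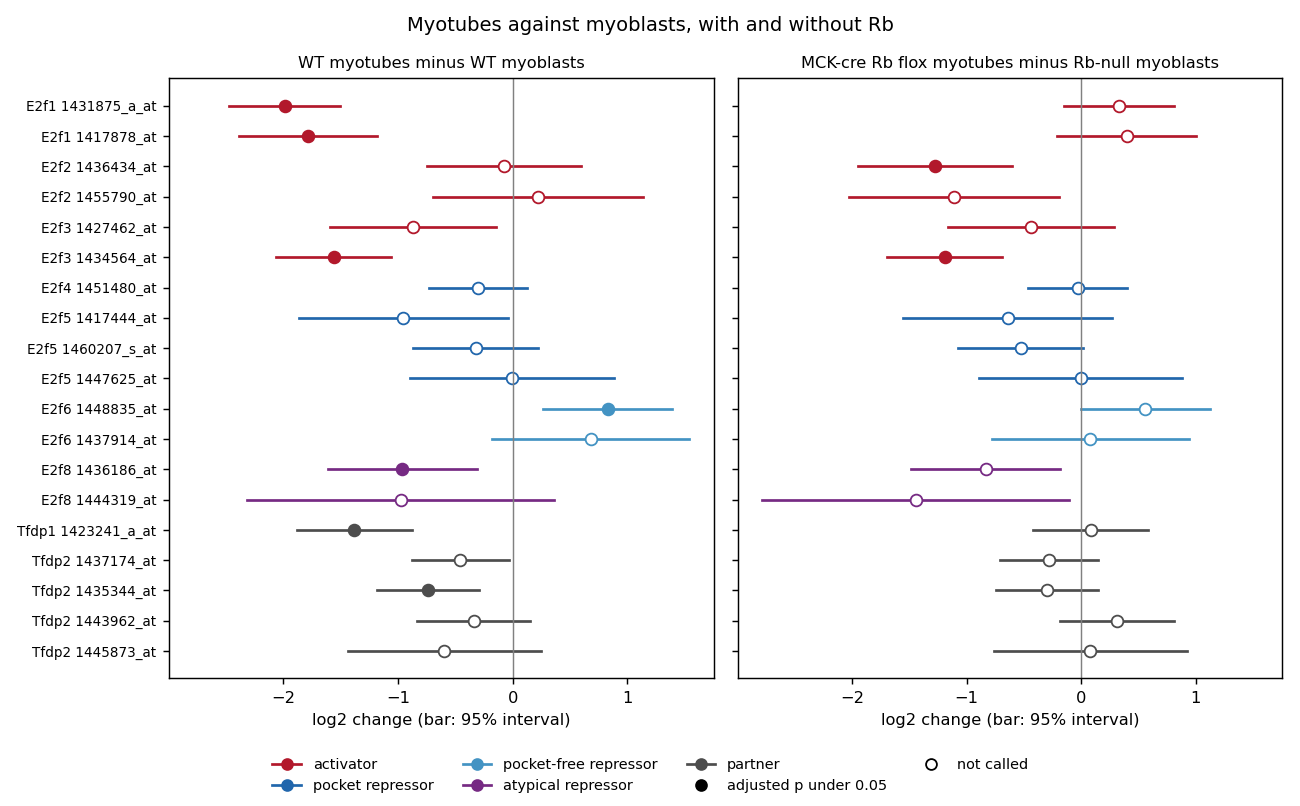
Log2 change (x axis) of 19 probe sets (rows) between myotubes and myoblasts, in WT cells (left) and in cells without Rb (right), with 95% intervals of the limma fit; filled points have an adjusted p under 0.05. With Rb, E2f1, Tfdp1 and E2f3 on 1434564_at lie between -1.99 and -1.38; without Rb, E2f1 and Tfdp1 lie near 0 and E2f2 and E2f3 have the filled points.

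The difference between the Rb effects in the 2 cell states was tested as a contrast of its own, the myotube change minus the myoblast change. The same number is the change between MCK-cre Rb flox myotubes and Rb-null myoblasts minus that between WT myotubes and WT myoblasts. The contrast mixes cell state with medium, serum and the time of Rb loss, and these cannot be told apart here. It was called for 3 of the 19 probe sets, where 1.3% of all probe sets were called in either direction. E2f1 gained 2.32 (SE 0.31, adjusted p = 0.00282) and 2.18 (SE 0.40, adjusted p = 0.0167) on the log2 scale more in myotubes than in myoblasts. Tfdp1 gained 1.46 more (SE 0.33, adjusted p = 0.0490), a call that held in 7 of 23 alternative settings. E2f2 had the opposite sign, at -1.20 (SE 0.44) and -1.33 (SE 0.60), without passing the adjustment (adjusted p = 0.245 and 0.380). E2f8 on 1436186_at was at 0.13 (95% interval -0.79 to 1.05).

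**Figure D5:**
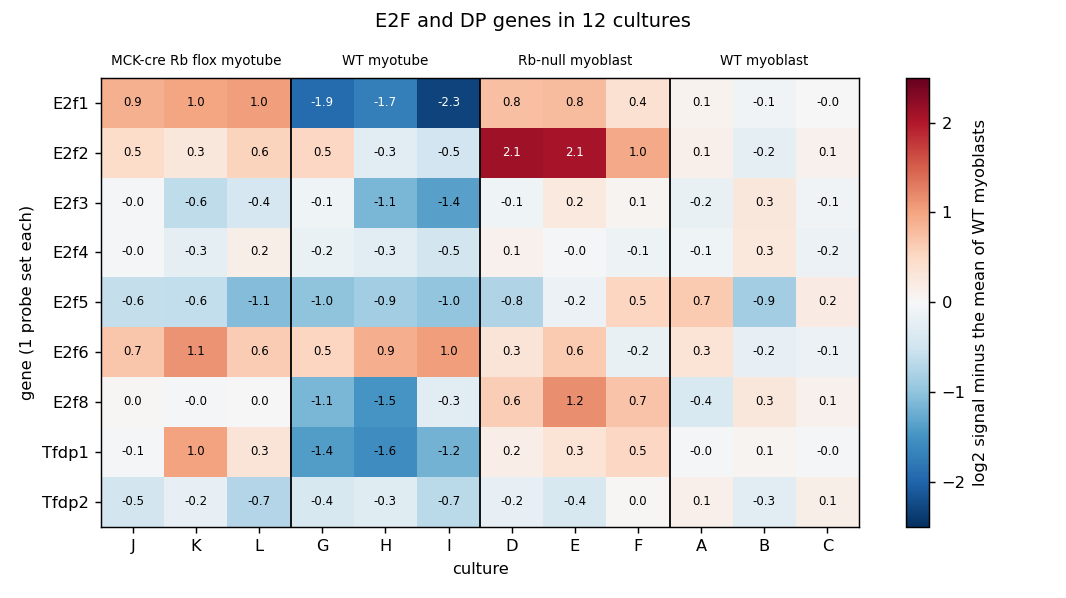
Log2 signal minus the mean of the 3 WT myoblast cultures (colour and printed value) for 1 probe set of each of the 9 genes (rows) in 12 cultures (columns, grouped). E2f1 lies at -2.3 to -1.7 in WT myotubes and at 0.9 to 1.0 in MCK-cre Rb flox myotubes, and E2f2 at 1.0 to 2.1 in Rb-null myoblasts.

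The genes closest to each member over the 12 cultures were found by Pearson's r between log2 signals of 1 probe set per gene, among 14331 genes, as a description, since all points share the 4 groups. Closest to E2f1 were Mcm2 (r = 0.989) and Mcm3 (0.986), which encode parts of the replicative helicase, and Dnmt1 (0.980), the maintenance DNA methyltransferase. Tfdp1 was closest to Ctps (0.977), which makes CTP, to Pola1 (0.968), a subunit of the priming DNA polymerase, and to Dnmt1 (0.962). For E2f8 the list was Trub1 (0.936), Orc6 (0.921), of the origin recognition complex, and U2af1 (0.911), a splicing factor. E2f2 was closest to Fcgbp (0.931), Syde2 (0.867) and Pspc1 (0.859), and E2f3 to 1700052K11Rik (0.963), Eme1 (0.933), a nuclease subunit, and Ints10 (0.911). E2f6 was closest to Pacsin3 (0.929), Aif1l (0.924) and Rassf7 (0.924). For E2f4 they were Bcat1 (0.882), Aarsd1 (0.869) and Nfatc3 (0.868), for E2f5 Lactb2 (0.907), Cnih2 (0.906) and Dlg1 (0.905), and for Tfdp2 Lbh (0.926), Endov (0.903) and Trip12 (0.892).

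Most of the listed targets of E2F changed in the same comparisons as E2f1 and Tfdp1. Of 32 listed genes of G1 and S phase, 30 were measured, each by 1 probe set. Of these, 25 were called higher and 0 lower in MCK-cre Rb flox than in WT myotubes, where 6.18% of 14331 genes, each by 1 probe set, were called higher and 3.78% lower; the median log2 change was 2.43 against 0.01 over those genes. Among them were Cdk1 (5.22, SE 0.20, adjusted p = 2.43e-08), the mitotic kinase, Mcm6 (4.98, SE 0.25, adjusted p = 1.75e-07), of the helicase, Ezh2 (1.48), a Polycomb methyltransferase, and Rrm1 (1.24), of ribonucleotide reductase. In WT differentiation 27 of the 30 were called lower and 0 higher, where 14.5% of these genes were called lower and 13.2% higher, with a median of -2.36 against 0.14. In Rb-null over WT myoblasts limma called 0 of 30, with all 30 changes positive and a median of 0.57 against -0.01. In MCK-cre Rb flox myotubes over Rb-null myoblasts 6 were called lower and 0 higher, where 8.71% of these genes were called lower and 8.23% higher, including Ezh2 (-1.56) and Cdca7 (-2.40).

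Among the pocket proteins and the MuvB complex that bind E2Fs or share their targets, Rbl1, which encodes p107 and is itself an E2F target, was higher in MCK-cre Rb flox than in WT myotubes (log2 change 1.90, SE 0.27, adjusted p = 0.000828). Of the 10 genes of that list 2 were called higher there, Rbl1 and Foxm1 (1.39), a mitotic gene activator, and 1 lower, Rb1 itself (-2.11). Over all genes, 6.18% were called higher in this comparison and 3.78% lower. Rbl2, which encodes p130, was higher in WT myotubes than in WT myoblasts (0.83, adjusted p = 0.0396), and was at -0.71 in MCK-cre Rb flox over WT myotubes (adjusted p = 0.144). Of the 13 cyclins, CDKs and CDK inhibitors that act upstream of Rb, 5 were called higher and 1 lower in MCK-cre Rb flox than in WT myotubes, against the 6.18% and 3.78% above. The 5 were the kinases Cdk2 (1.21), Cdk4 (1.03) and Cdk6 (1.23) and the CDK inhibitors Cdkn2a (1.08, adjusted p = 0.0172) and Cdkn2c (0.87, adjusted p = 0.0229); the 1 lower was the cyclin Ccnd3 (-1.06). Cdk4 and Cdkn2a complete the count and were chosen after their values were seen. In WT differentiation Cdk6 (-2.55), Cdk4 (-2.10) and Ccnd1 (-1.92), all of which drive phosphorylation of Rb, were called lower and Cdkn1a (1.86), the inhibitor p21, higher.

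Smaller lists described what the repressor E2Fs are known to work with. Of the 9 measured genes of the E2F6 complex, 0 were called by limma in MCK-cre Rb flox over WT myotubes, where calls covered 6.18% of genes upward and 3.78% downward. With WT differentiation 1 of the 9, Rnf2 (-1.09), which encodes a ubiquitin ligase of Polycomb, was called lower and 0 higher, against 14.5% and 13.2% over all genes. With 9 genes these counts give no result about the complex. Of the 5 germline genes known as E2F6 targets only Stag3, a meiotic cohesin subunit, passed the filter; it was higher in MCK-cre Rb flox than in WT myotubes (2.05, SE 0.42, adjusted p = 0.00872). Of 6 apoptosis genes known as E2F targets 3 were measured. Apaf1 (1.59, adjusted p = 0.00127), which encodes the scaffold of the apoptosome, and Bcl2l11 (0.95, adjusted p = 0.0200), a pro-death BCL2 relative, were called higher without Rb in myotubes. Bbc3, the last of the 3, was not called (0.20, adjusted p = 0.735), and 6.18% of all genes were called higher.

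Cell type markers moved with some of these comparisons. The 7 myotube markers summed to 266100 to 326500 signal units in MCK-cre Rb flox myotubes, against 531200 to 758000 in WT myotubes. Of these markers 3, Ckm, Myh8 and Mb, were called lower, where 3.78% of all genes were. The 7 markers summed to 35970 to 151600 in Rb-null and 37830 to 98590 in WT myoblasts. Of 10 fibroblast markers 7 were measured, and their sum was 10820 to 18430 in MCK-cre Rb flox myotubes, against 6352 to 10470 in WT myotubes. It was 12360 to 24870 in Rb-null and 16860 to 27370 in WT myoblasts. Lum and Postn did not pass the filter, Fbn1 was not analysed here, and the median log2 change of the 7 was 0.02 without Rb in myotubes, with 4 positive and 3 negative. The 1 called marker among them was Col3a1, a fibrillar collagen, with a log2 change of 2.89 (limma, SE 0.58, adjusted p = 0.00766). The 5 myoblast markers summed to 42850 to 76700 in MCK-cre Rb flox and 67510 to 74600 in WT myotubes, and to 50560 to 63330 in Rb-null and 64090 to 68440 in WT myoblasts. The part of the markers in the results was not tested.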

How the data were processed

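The deposited values are linear intensities of probe sets, made with MAS5 (no version), per the submitters' processing notes. The authors' scaling was read from the values: the mean without the lowest and highest 2% is 1500 on every array. Depth has no meaning for arrays; 3 cultures per group limit the precision. Probe sets were assigned with the supplied chip annotation, updated to RefSeq on GRCm38.p6. Signals were logged as log2(signal + offset), with offsets of 130.2 (MOE430A) and 206 (MOE430B), and kept when above the 40th percentile of their array on at least 3 of 12 arrays, which left 15628 and 16303 probe sets. These were fitted together with limma 3.58.1 in R 4.3.3 (lmFit, eBayes with a trend, 1 mean per group), adjusted by Benjamini-Hochberg and called at an adjusted p under 0.05. The fit was tested on simulated data. A promoter search and tables used Python 3.11.15, numpy 2.4.6 and pandas 2.3.3, and figures matplotlib 3.10.9. Scan days came from the record of the scanner software for each array.

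All member probe sets are named. Other genes were named from lists by 1 probe set per gene (MOE430A first, _x_at and _s_at last, then the highest mean): up to 4 called members per comparison, 2 from each end, and the 3 genes most like each member; other named values (Rb1, Rbl2, Stag3 and marker genes) belong to these lists. The members and lists were chosen with earlier results of these data known. Alternatives were other offsets, normalizations, filters, chip types apart, 1 probe set per gene, no trend, array weights, the compared groups alone, scan day as a block or held fixed, and each culture left out. No culture letter occurs in 2 groups, so cultures were not paired. Each p-value sets a difference between group means against the spread between cultures, as estimated over the fitted groups and moderated by limma. In WT differentiation with scan day as a block or held fixed, the WT myoblast side is culture B alone.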

Additional observations from a re-analysis of the deposited data

Results flagged for a closer look

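The effect of Rb differed between myotubes and myoblasts, by a test of that difference, for 3 probe sets. Cell state, medium, serum and the time of Rb loss cannot be told apart in it. For E2f1 the myotube change exceeded the myoblast change by 2.32 on 1431875_a_at and by 2.18 on 1417878_at on the log2 scale. The first was called in 23 of 23 alternative settings and the second in 19 of 22; it was not called without WT myoblast culture C or without Rb-null culture D or E. For Tfdp1 the difference was 1.46 and was called in 7 of 23, with adjusted p from 0.0215 to 0.127. No group held enough cultures for a test of single outlying cultures.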

How the results depend on the processing

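The calls of E2f1 (both probe sets) and Tfdp1 in MCK-cre Rb flox over WT myotubes and in WT differentiation held under every alternative run. In WT differentiation the count of 7 called member probe sets became 4 with 1 probe set per gene and 4 with scan day as a block; within the last scan day it was 3 on MOE430A and 0 on MOE430B, and 4 to 7 when single cultures were left out, with the 4 without WT myoblast C. For MCK-cre Rb flox myotubes over Rb-null myoblasts the count of 2 became 1 with 1 probe set per gene, 0 with scan day as a block, and 1 to 3 when single cultures were left out, with 1 without Rb-null culture D or E. Between the Rb effects in both cell states, the count of 3 ranged from 1 to 3, with 1 without culture C, D or E. Between both kinds of myotube the count of 3 became 2 with 1 probe set per gene, where only 1 E2f1 probe set was tested, and was otherwise 3 to 4 in fits of both chip types; in myoblasts it was 0 under all alternatives. Counts over all 31931 probe sets fell in these settings too. In WT differentiation they were 7972, then 3764 with scan day as a block and 5060 without culture C. For MCK-cre Rb flox myotubes over Rb-null myoblasts they were 4882, then 242 with scan day as a block. Without culture D or E they were 2741 or 3188. Between the Rb effects they were 414, then 177, 221 and 188 without culture C, D and E. Fewer genes or cultures enter several of these fits. Otherwise the cause was not tested. Of 2258 alternative values of the 95 member results, 2117 kept their direction and side of the threshold, 43 lost and 16 gained a call, 82 uncalled values changed sign and 0 called values did. Probe sets near background, such as E2f1 in WT myotubes, limit the folds to understated values. No paired analysis was possible because no culture letter occurs in 2 groups.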

Other observations

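E2f7, the partner in function of E2f8 among the atypical E2Fs and not one of the 9 genes, had 1 probe set, 1437187_at on MOE430B. MCK-cre Rb flox myotubes had signals of 4232, 5979 and 4232, against 1433, 1300 and 801 in WT myotubes. Rb-null myoblasts had 7244, 10232 and 7126, against 4274, 4539 and 5104 in WT myoblasts. Without Rb the groups were separate and higher in both cell states. The change was called in myotubes (log2 change 1.87, SE 0.23, adjusted p = 0.00025) and not in myoblasts (0.78, SE 0.23, adjusted p = 0.756), and the difference between these changes was 1.09 (adjusted p = 0.130) in limma. E2f7 was chosen after its values were seen.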
